A study of Mus musculus with 12 samples.

Results

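The proteasome genes were taken as every gene whose symbol starts with Psma, Psmb, Psmc, Psmd, Psme, Psmf or Psmg, which gave 48 of the 7318 genes in the deposited count table. They comprised 7 alpha and 7 beta subunits of the core particle, 3 immunoproteasome beta subunits, 6 ATPases and 11 non-ATPase subunits of the cap, 4 activators, 1 inhibitor, 4 assembly chaperones of the core and 3 of the cap. The last 2 symbols are not standard subunits: Psmc3ip encodes a protein of meiotic recombination, and Psme2b is a retrogene copy of Psme2. The count table covered mammary epithelial cells of 4-week-old female FVB/N mice, all of which carried both MMTV-Wnt1 and MMTV-iFgfr1. Mice of the AP20187 group (+iFGFR1) were given a compound that dimerises and thereby activates the inducible receptor, and mice of the other group (-iFGFR1) were given vehicle, both intraperitoneally and 6 h before the glands were taken. MMTV is a viral promoter active in mammary epithelium, so WNT signalling was raised in both groups, and the design held no mice that were given AP20187 but lacked the inducible receptor. The epithelium was enriched by short spins after collagenase digestion in cycloheximide, and the labels name no sort. From every pellet both RNA and ribosome footprints were sequenced. Footprints are the stretches of mRNA that ribosomes shield from nuclease, and the 2 assays and 2 treatments made 4 groups of 3 libraries. Whether the cells of a library were pooled from several mice is not in the labels. The p-values thus reflect only how far these samples spread, and some of that spread may be technical.

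The proteasome degrades proteins tagged with ubiquitin. Its barrel-shaped core is built of rings of alpha and beta subunits, and the beta subunits Psmb5, Psmb6 and Psmb7 carry the catalytic sites. The cap binds ubiquitin chains, removes them and unfolds the substrate with a ring of ATPases. Under interferon, cells replace the catalytic subunits by Psmb8, Psmb9 and Psmb10, and the resulting immunoproteasome is known for making peptides that are shown on MHC class I molecules.

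RNA libraries held 94513818 to 251874393 counts over the listed genes, and footprint libraries held 1772969 to 11018709. The 48 genes made up 0.755%, 0.657% and 0.882% of the RNA counts in AP20187 libraries 1, 2 and 3, against 0.552%, 0.700% and 0.554% in vehicle libraries 1, 2 and 3. Of footprint counts they made up 1.04%, 0.962% and 1.04% in AP20187 libraries and 0.919%, 0.889% and 0.723% in vehicle libraries. The groups overlapped in RNA, where vehicle library 2 lay above AP20187 library 2, and did not overlap in footprints. All 48 passed the filter on low counts in every comparison.

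In RNA, 10 of the 48 genes rose after AP20187 and 1 fell at an adjusted p under 0.05 (quasi-likelihood test of edgeR, Benjamini-Hochberg adjustment over 7314 genes). These were 20.8% and 2.08% of the 48, where 12.4% of all tested genes rose and 13.9% fell. The median log2 fold change of the 48 was 0.36, against 0.01 over all tested genes. Values were above 0 for 45 of the 48 and for 3731 of the 7314 tested genes. The 48 share their libraries, so their signs are not independent. The genes that rose were the immunoproteasome subunits Psmb9 and Psmb8, the core subunits Psma7 and Psmb5, the cap subunits Psmc4, Psmd1, Psmd3 and Psmd7, the inhibitor Psmf1 and the core chaperone Psmg3, and the one that fell was the core chaperone Psmg1. These calls depended on single libraries. None of the 48 rose past the threshold without AP20187 library 1, without vehicle library 1 or without vehicle library 3, where 5.3%, 4.2% and 3.38% of all genes still rose. Without AP20187 library 3, the 3 called were Psmb8, Psmb9 and Psmd3 (11.5% of all genes). Without AP20187 library 2 the number was 18 and without vehicle library 2 it was 13, against 14.3% of all genes in each case. In a bulk sample, fewer cells of a type and less RNA per cell cannot be told apart.

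**Figure D1:**
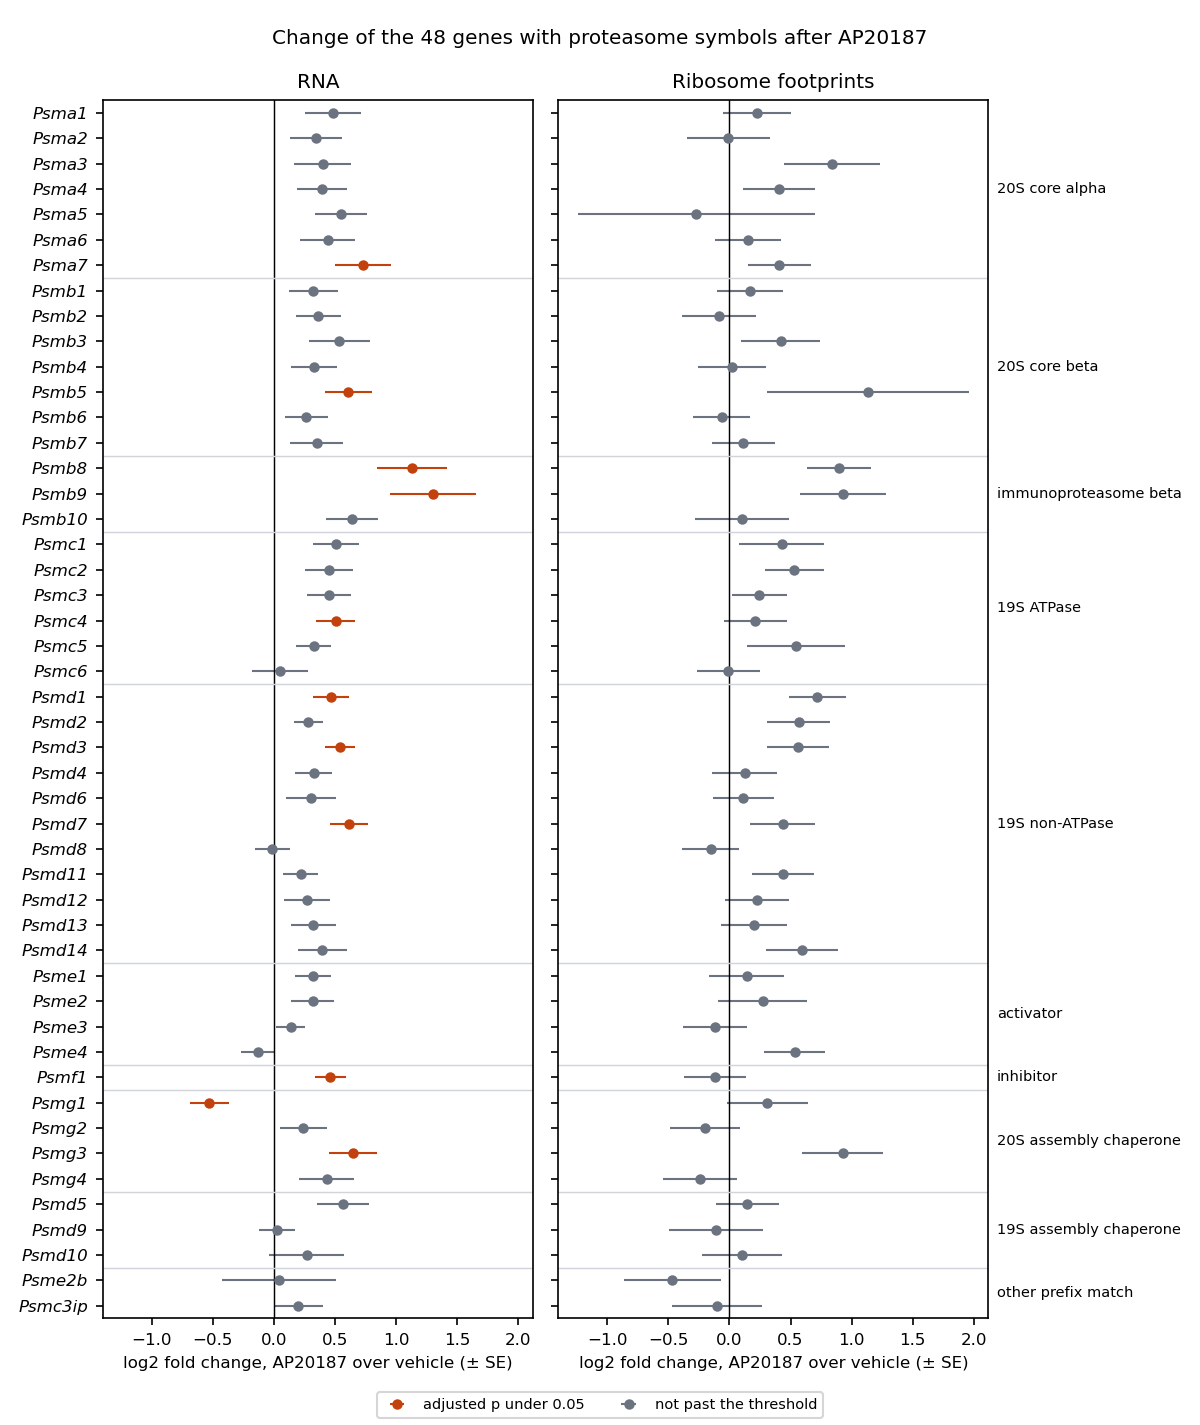
Log2 fold change of AP20187 over vehicle (x axis, bars ± SE) of each of the 48 genes (rows, grouped by role) in RNA (left) and in ribosome footprints (right), with 3 libraries a group. In RNA 45 of 48 points lie right of 0 and 11 pass the threshold, with Psmb9 and Psmb8 farthest right, while in footprints 35 lie right of 0 and none passes. Over all tested genes, 3731 of 7314 were above 0 in RNA and 3660 of 7041 in footprints.

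The largest RNA changes among the 48 were those of Psmb9 and Psmb8 of the immunoproteasome. Psmb9 encodes the inducible subunit that takes the place of Psmb6. It had 75.3, 33.8 and 36.8 CPM (counts scaled to a common library size by the TMM method) in the RNA of AP20187 libraries 1, 2 and 3, against 17.3, 27.1 and 14.8 CPM in vehicle libraries. The groups did not overlap, and AP20187 library 1 stood well above the rest. The log2 fold change was 1.30 ± 0.35 (SE, n = 3 each, edgeR adjusted p = 0.0304). Psmb8, the inducible counterpart of Psmb5, had 178.8, 98.4 and 102.2 CPM in AP20187 libraries and 51.7, 77.4 and 44.4 CPM in vehicle libraries. It again peaked in AP20187 library 1 and showed no overlap, with a log2 fold change of 1.13 ± 0.29 (edgeR adjusted p = 0.0254). Without AP20187 library 1, the log2 fold changes were 0.85 for Psmb9 (edgeR adjusted p = 0.0866) and 0.81 for Psmb8 (0.0683). Psmb10, the inducible counterpart of Psmb7, had 46.0, 30.5 and 35.8 CPM in AP20187 libraries and 19.9, 28.8 and 23.4 CPM in vehicle libraries. The groups did not overlap, yet the log2 fold change of 0.64 ± 0.21 missed the threshold (edgeR adjusted p = 0.0556).

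Of the constitutive catalytic subunits, Psmb5 rose and the other two did not pass. Psmb5, which carries the chymotrypsin-like site, had 40.2, 36.2 and 50.4 CPM in AP20187 RNA libraries and 26.6, 33.2 and 23.3 CPM in vehicle libraries. The log2 fold change was 0.61 ± 0.19, with an adjusted p of 0.049998 by edgeR, at the edge of the threshold. Psmb6, with the caspase-like site, had a log2 fold change of 0.27 ± 0.18 (edgeR adjusted p = 0.285), and Psmb7, with the trypsin-like site, one of 0.35 ± 0.22 (0.252). For both, vehicle library 2 lay above AP20187 libraries 1 and 2.

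The balance within each pair was compared as a ratio of counts in the same library. The RNA ratio of Psmb9 to Psmb6 was 0.429, 0.196 and 0.158 in AP20187 libraries, against 0.116, 0.141 and 0.104 in vehicle libraries. That is a log2 difference of 0.99 with no overlap between groups (two-sided exact permutation test, p = 0.1, the smallest that 3 against 3 allow, and 0.3 adjusted over 6 ratios). The Psmb8 to Psmb5 ratio differed by 0.50 on the log2 scale (exact permutation p = 0.2, adjusted 0.4) and the Psmb10 to Psmb7 ratio by 0.30 (p = 0.4, adjusted 0.6). In footprints the Psmb9 to Psmb6 ratio was 0.933, 0.449 and 0.406 in AP20187 libraries and 0.323, 0.332 and 0.236 in vehicle libraries. The groups again did not overlap, with a log2 difference of 0.92 (exact permutation p = 0.1, adjusted 0.3). The footprint ratios of Psmb8 to Psmb5 and of Psmb10 to Psmb7 differed by -0.24 (p = 0.6, adjusted 0.72) and 0.05 (p = 1, adjusted 1) in the same exact test. The difference for Psmb8 to Psmb5 took either sign when single libraries were left out, between -1.21 and 0.73. No ratio passed the threshold, and with 3 libraries a group none could.

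**Figure D2:**
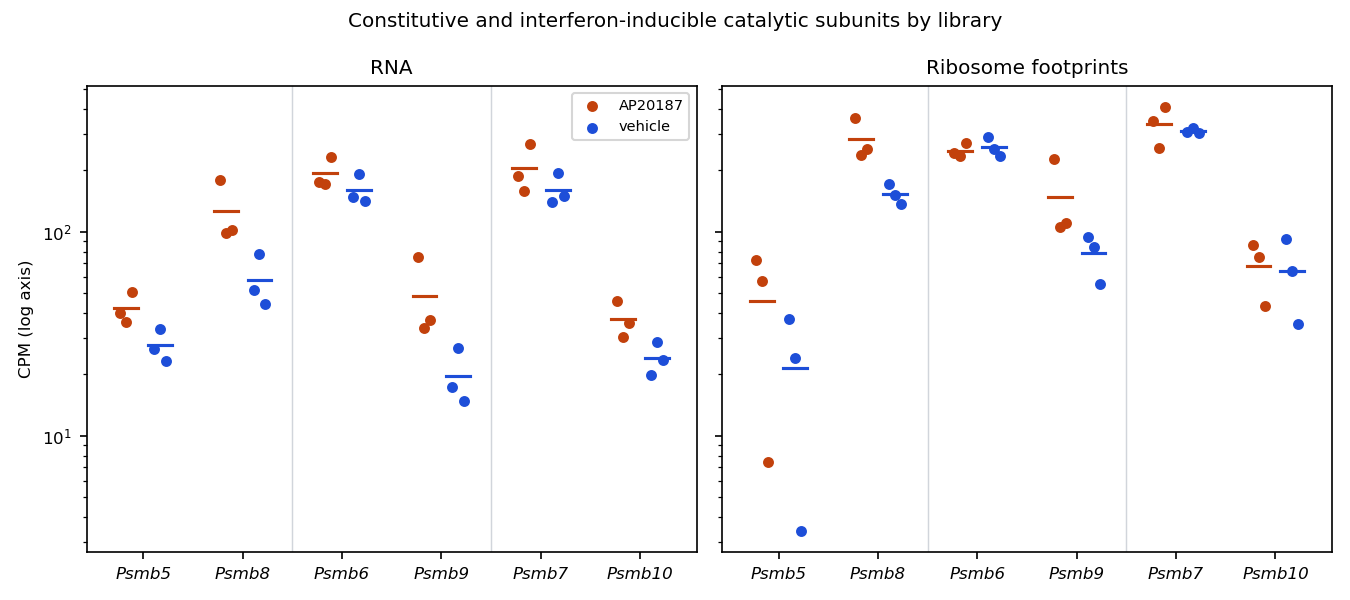
CPM on a log axis of the 3 constitutive catalytic subunits, each left of its inducible counterpart, in RNA (left panel) and footprints (right panel). Points are single libraries in the order 1 to 3, bars are means of 3, and AP20187 stands left of vehicle. Psmb8 and Psmb9 lie higher in all 3 AP20187 libraries than in any vehicle library in both panels, and the footprint points of Psmb5 drop to 7.4 CPM in AP20187 library 3 and to 3.4 CPM in vehicle library 3.

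Promoter windows of Psmb8, Psmb9 and Psmb5 are shown because these 3 catalytic subunits passed the RNA test, Psmb5 at the edge of the threshold. Each window spans 250 bases before to 50 after the RefSeq gene start on GRCm38.p6, is written 5′ to 3′ on the gene's strand, and marks matches to the 3 motifs below in capitals. The window of Psmb8 is chr17:34197945-34198244 on the plus strand, that of Psmb9 chr17:34187281-34187580 on the minus strand, and that of Psmb5 chr14:54617946-54618245 on the minus strand.
Psmb8: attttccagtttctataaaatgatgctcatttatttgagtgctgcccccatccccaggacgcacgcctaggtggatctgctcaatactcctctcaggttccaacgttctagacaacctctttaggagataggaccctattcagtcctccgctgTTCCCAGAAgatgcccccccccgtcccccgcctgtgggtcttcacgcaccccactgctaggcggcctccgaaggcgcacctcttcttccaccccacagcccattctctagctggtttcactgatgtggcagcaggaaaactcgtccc
Psmb9: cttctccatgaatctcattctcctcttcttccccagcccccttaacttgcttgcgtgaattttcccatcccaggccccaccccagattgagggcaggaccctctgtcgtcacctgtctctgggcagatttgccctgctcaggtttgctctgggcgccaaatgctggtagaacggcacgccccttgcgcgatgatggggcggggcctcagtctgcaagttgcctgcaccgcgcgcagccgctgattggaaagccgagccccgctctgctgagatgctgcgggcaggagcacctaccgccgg
Psmb5: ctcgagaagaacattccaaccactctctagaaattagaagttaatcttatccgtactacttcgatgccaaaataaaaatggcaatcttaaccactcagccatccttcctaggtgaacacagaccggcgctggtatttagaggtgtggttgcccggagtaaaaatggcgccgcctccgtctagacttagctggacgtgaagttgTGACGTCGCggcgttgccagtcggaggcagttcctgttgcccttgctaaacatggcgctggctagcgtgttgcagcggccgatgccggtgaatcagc
The motifs, searched on both strands, were TGACNNNGC, a core of the antioxidant response element, TTCNNNGAA, the GAS form of interferon-responsive promoters, and an interferon response form made of a pair of GAAA with any 2 bases between them. The capitals in Psmb8 are a match to TTCNNNGAA and those in Psmb5 a match to TGACNNNGC, and the Psmb9 window held none of the 3. In the GENCODE vM21 gene models, Psmb8 starts at 34197721 and Psmb9 at 34187764, both upstream of their windows. Sequence before those starts was not searched. Among 44 promoters of 41 matched genes of the set, 13.6% held TGACNNNGC, against 12.4% of 32851 promoters of that length. TTCNNNGAA was in 6.82% of the 44 and 8.30% of all, and the interferon response form in 11.4% of the 44, which is 5 promoters, and 3.44% of all. The 5 were those of Psmb3, Psmd4, Psmd9, Psme1 and Psmg4, of which none passed the RNA test. A match of letters is a description and shows no binding.

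In the core, all 7 alpha and all 7 beta subunits had RNA log2 fold changes above 0, with medians of 0.44 and 0.35. In each set 1 of 7 passed (14.3%), near the 12.4% of all tested genes that rose. Psma7, a subunit of the outer ring, had 245.8, 213.1 and 318.2 CPM in AP20187 RNA libraries and 134.5, 208.8 and 126.6 CPM in vehicle libraries. The groups did not overlap, but AP20187 library 2 and vehicle library 2 lay close together, and the log2 fold change was 0.73 ± 0.23 (edgeR adjusted p = 0.0486). The other alpha subunits lay between 0.35 for Psma2 and 0.55 for Psma5, and the beta subunits between 0.27 for Psmb6 and 0.61 for Psmb5. By library, the median alpha subunit stood at 0.38, 0.12 and 0.84 on the log2 scale above the vehicle mean in AP20187 libraries 1, 2 and 3, and at -0.23, 0.36 and -0.12 in vehicle libraries 1, 2 and 3. Vehicle library 2 thus lay above AP20187 library 2. The core was highest in AP20187 library 3, whereas Psmb8, Psmb9 and Psmb10 were highest in AP20187 library 1.

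In the cap, 1 of 6 ATPases (16.7%) and 3 of 11 non-ATPase subunits (27.3%) rose in RNA, and none fell. Of all tested genes 12.4% rose, near the share of the ATPases. Psmd3, a lid subunit, had 259.7, 240.3 and 246.9 CPM in AP20187 libraries and 177.6, 182.2 and 154.8 CPM in vehicle libraries. Its 3 AP20187 libraries lay close together and well above the vehicle libraries, with a log2 fold change of 0.54 ± 0.12 (edgeR adjusted p = 0.0184, the lowest of the 48). Psmd7, the lid partner of the deubiquitinase Psmd14, had 266.8, 206.8 and 293.0 CPM in AP20187 libraries and 162.3, 178.6 and 159.6 CPM in vehicle libraries. The groups did not overlap (log2 fold change 0.62 ± 0.15, edgeR adjusted p = 0.0249). Psmd1, a large scaffold subunit of the base, had a log2 fold change of 0.47 ± 0.15 (edgeR adjusted p = 0.049998), and the ATPase Psmc4 one of 0.51 ± 0.16 (0.0487). The ubiquitin receptor Psmd4 (0.33 ± 0.15), the deubiquitinase Psmd14 (0.39 ± 0.20) and the scaffold Psmd2 (0.28 ± 0.12) did not pass. At the low end lay the ATPase Psmc6 with 0.05 ± 0.23 and the lid subunit Psmd8 with -0.01 ± 0.14.

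Assembly chaperones went both ways in RNA. Psmg1, which pairs with Psmg2 to build the alpha ring, had 28.6, 28.1 and 37.4 CPM in AP20187 libraries and 43.2, 44.6 and 47.8 CPM in vehicle libraries. It was the only one of the 48 that fell, by 0.53 ± 0.16 on the log2 scale (edgeR adjusted p = 0.0440), and its groups did not overlap. The call held without AP20187 library 3 and was lost without each of the other 5 RNA libraries. Psmg2 had a log2 fold change of 0.24 ± 0.19 (edgeR adjusted p = 0.376). Psmg3, which works with Psmg4 on the same ring, had 34.5, 28.8 and 43.2 CPM in AP20187 libraries and 20.3, 26.1 and 21.5 CPM in vehicle libraries, a log2 fold change of 0.65 ± 0.20 (edgeR adjusted p = 0.0427). Its transcript overlaps the annotated gene Gm26938 on the same strand over 32.3% of its length, so its reads may be shared. Psmg4 had a log2 fold change of 0.43 ± 0.22 (edgeR adjusted p = 0.181). None of the 3 cap chaperones passed, and the lowest adjusted p among them was that of Psmd5 (0.57 ± 0.21, edgeR adjusted p = 0.0820).

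Of the proteins that bind the ends of the core, only the inhibitor passed. Psmf1 had 62.2, 54.7 and 57.7 CPM in AP20187 RNA libraries and 43.4, 42.5 and 40.7 CPM in vehicle libraries, so both groups were tight and apart (log2 fold change 0.46 ± 0.13, edgeR adjusted p = 0.0314). The interferon-inducible activators Psme1 and Psme2, which form a ring on the core, had log2 fold changes of 0.32 ± 0.15 (edgeR adjusted p = 0.136) and 0.32 ± 0.17 (0.201). The nuclear activators Psme3 and Psme4 had 0.14 ± 0.12 and -0.13 ± 0.14 and did not pass either.

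In footprints, 0 of the 48 genes passed in either direction in edgeR's fit without a replicate term, where 0.937% of 7041 tested genes rose and 1.6% fell. The unadjusted p was under 0.05 for 7 of the 48 (14.6%), near the 16.5% of all genes. DESeq2 called 2 higher, Psmb8 (adjusted p = 0.0257) and Psmd1 (0.0381), or 4.17% of the 48 against 2.98% of the 7318 genes. Limma voom called 0, against 1.08% of all genes. In their deviations from the group mean, AP20187 footprint libraries correlated most with the vehicle library of the same number. These correlations were weak (r = 0.191, 0.272 and 0.378 for numbers 1, 2 and 3). Whether same-numbered libraries of the 2 treatments belong together is not in the labels. With the replicate number as a block, 5 rose: Psmb8 (adjusted p = 0.0112 by edgeR), Psmg3 (0.0292), Psmd1 (0.0297), Psmb9 (0.0301) and Psmb5 (0.0490). That is 10.4% of the 48, where 5.01% of all genes rose in the same fit. The median log2 fold change of the 48 was 0.21, against 0.03 over all tested genes. Values were above 0 for 35 of the 48 and for 3660 of the 7041 tested genes.

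Psmb8 had 360.8, 238.6 and 254.4 footprint CPM in AP20187 libraries and 171.9, 151.1 and 136.4 in vehicle libraries. The groups did not overlap, with a log2 fold change of 0.90 ± 0.26 (edgeR adjusted p = 0.101 without the block). Psmb9 had 227.9, 105.5 and 110.2 footprint CPM in AP20187 libraries and 94.7, 84.5 and 55.8 in vehicle libraries, again without overlap and with AP20187 library 1 far above the rest (0.93 ± 0.35, edgeR adjusted p = 0.205). The groups overlapped for Psmb10, with 86.6, 74.8 and 43.3 footprint CPM in AP20187 libraries and 92.5, 64.4 and 35.3 in vehicle libraries (0.10 ± 0.39, edgeR adjusted p = 0.937). Library 3 was the lowest of each group. Psmd1 had 421.3, 419.3 and 381.5 footprint CPM in AP20187 libraries and 244.2, 278.1 and 220.2 in vehicle libraries (0.72 ± 0.24, edgeR adjusted p = 0.146 without the block). Psmg3 had 109.4, 80.1 and 136.2 footprint CPM in AP20187 libraries and 84.3, 41.4 and 46.3 in vehicle libraries, with AP20187 library 2 below vehicle library 1 (0.93 ± 0.33, edgeR adjusted p = 0.185).

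Footprints of Psmb5 and Psma5 were few and uneven. Psmb5 had 774, 186 and 28 counts in AP20187 footprint libraries 1, 2 and 3, against 68, 44 and 13 in vehicle libraries, and its log2 fold change of 1.13 ± 0.83 had the widest error but one. The alpha subunit Psma5 had 412, 59 and 49 counts in AP20187 libraries and 105, 54 and 1 in vehicle libraries, where the last is below the floor of 3 counts (-0.27 ± 0.97, edgeR adjusted p = 0.935). Elsewhere in the core the lowest p among alpha subunits was that of Psma3 (0.84 ± 0.39, edgeR adjusted p = 0.320). Among ATPases it was that of Psmc2 (0.53 ± 0.24, edgeR adjusted p = 0.302). The activator Psme4 had a footprint log2 fold change of 0.54 ± 0.25 (edgeR adjusted p = 0.312).

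Translational efficiency sets the footprints of a gene against its RNA, and its change with AP20187 was tested in a single model of all 12 libraries by the term that combines assay with treatment. In edgeR it passed for 0% of 7315 tested genes in the higher and 0% in the lower direction, and so for 0 of the 48. The unadjusted p was under 0.05 for 350 genes of all (4.78%) and for 3 of the 48 (6.25%). These were the inhibitor Psmf1 with -0.63 ± 0.26, the activator Psme4 with 0.62 ± 0.28 and the chaperone Psmg1 with 0.79 ± 0.37 on the log2 scale (edgeR adjusted p = 0.988 each). DESeq2 called 8 genes higher (0.109%) and 2 lower (0.0273%) in the table, of which 0 were among the 48, and limma voom called 0. The median of the 48 was -0.23, against -0.08 over all genes. The SE of these 48 values ran from 0.26 for Psmd1 to 1.07 for Psma5, which is wide beside the RNA changes above. A p that misses the threshold does not show that footprints followed RNA. The model treated the 12 libraries as independent, although RNA and footprints came from the same pellets. With the pellet as a block, taken by library number, 0 of the 48 and 0% of all genes passed in edgeR.

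Relative to RNA, footprints on these genes differed widely within the vehicle group. Such values also depend on the length of untranslated regions and on the region counted, which the fit did not take into account. Of the 48, 27 had more footprints over RNA than the scaled average gene and 7 had fewer (56.2% and 14.6%, against 24.2% and 25.7% of all 7306 tested genes, edgeR adjusted p under 0.05). The count of 27 was 16 (33.3%) without vehicle RNA library 1, where 17% of all genes were high. The median log2 value was 0.65, against -0.02 over all genes. All 3 immunoproteasome subunits, 5 of 7 core beta subunits and 4 of 7 core alpha subunits were high, with 2.07 ± 0.20 for Psmb4, 2.06 ± 0.26 for Psma7 and 2.06 ± 0.32 for Psmb9. The core chaperone Psmg4 reached 3.15 ± 0.26. The 7 low genes were Psma3 (-2.73 ± 0.28), the ATPase Psmc1 (-2.58 ± 0.21), Psme2 (-2.45 ± 0.23), Psma4 (-1.77 ± 0.21), Psmd2 (-1.11 ± 0.21), Psme4 (-1.05 ± 0.19) and the lid subunit Psmd11 (-0.76 ± 0.17). This fit took no account of the pellet that RNA and footprints shared. With the pellet as a block, taken by library number, 27 were high and 8 low (56.2% and 16.7%, against 22.7% and 26.6% of all genes). In deviations from the group mean, same-numbered vehicle RNA and footprint libraries had r = 0.045, 0.084 and 0.345 for numbers 1, 2 and 3. Footprint library 1 correlated more with RNA library 2 (0.174), while footprint libraries 2 and 3 correlated most with their own number.

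Low footprints over RNA went with coding sequence that recurs elsewhere in the genome, among the 48 as over the whole table. For each gene, the share of 28-base windows of its coding sequence that also occur exactly in a transcript of another annotated gene at a different place was counted, with the length chosen near that of a footprint. The share was over 50% in 9 of the 48 (18.75%, against 7.70% of 7126 listed genes with a coding model). It was 92.4% for Psma3, 90.4% for Psma5, 85.9% for Psmb3, 80.6% for Psme2, 80.4% for Psmb5, 63.0% for Psma4, 54.0% for Psmd11, 53.4% for Psmc1 and 81.0% for Psme2b. Of these 9, 5 were low (55.6%), 1 was high (11.1%) and 3 did not pass, which is near the 58.1% low and 12.6% high over all 547 genes past 50%. Among the 33 genes with a share of up to 10%, 22 were high (66.7%) and 1 was low (3.03%), where 25.7% of all such genes were high and 22.5% low. Among the 15 above 10%, 5 were high (33.3%) and 6 were low (40%), where 16.9% of all such genes were high and 42.8% low. Psme4, the low gene in the first set, shared no window. Spearman's rho between the share and the log2 value was -0.47 over the 48 genes and -0.18 over 7114 genes, as a description, since the genes share their libraries. The partners were mostly processed pseudogenes, intronless copies of an mRNA: Gm13835 on chromosome 6 held 86.0% of the windows of Psma3, Gm3375 on chromosome 7 held 72.7% of those of Psmb5, and Gm9575 on chromosome 16 held 39.3% of those of Psmc1. How the authors' counting treated reads that map to several places is not given in the sources used here, and its part in these values was not tested.

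**Figure D3:**
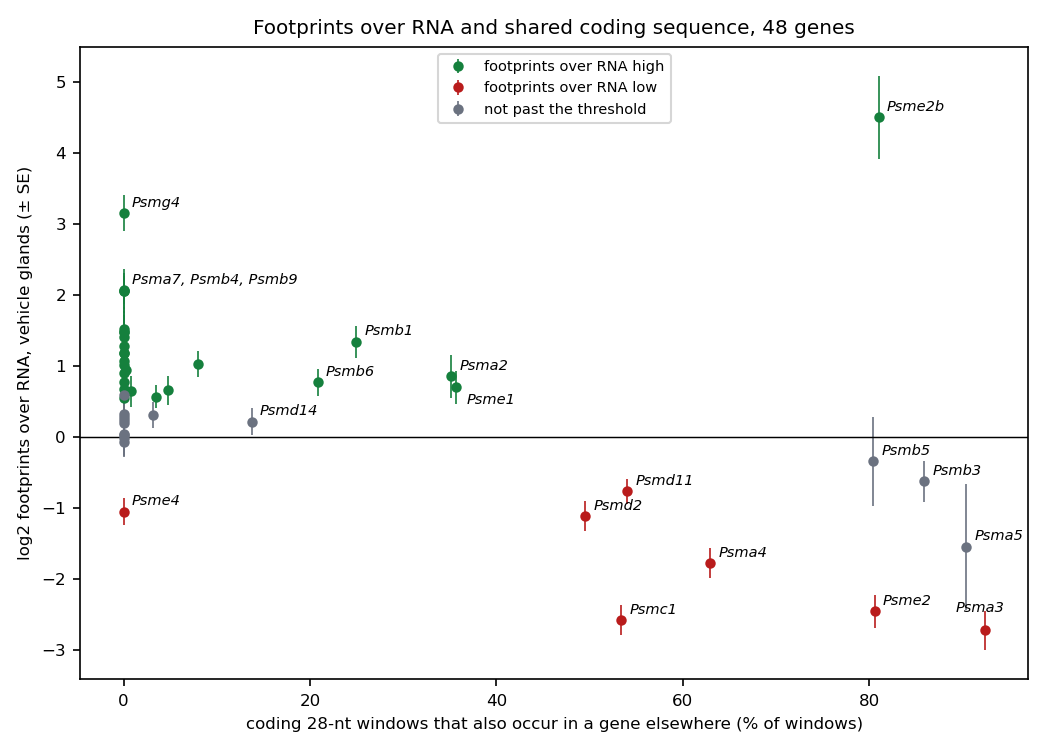
Share of coding 28-base windows found in a gene elsewhere (x axis, percent) against log2 footprints over RNA in vehicle glands (y axis, bars ± SE, 3 libraries an assay) for the 48 genes. Of the 9 genes past 50%, all but Psme2b lie below 0, while Psme4 is the one low gene at 0%.

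Psme2 and its retrogene copy share nearly all of their coding sequence. Psme2 lies on chromosome 14 and Psme2b on chromosome 11, and their coding sequences of 717 bases each (GENCODE vM21 models on GRCm38) differ at 5 positions, an identity of 99.3% with a longest identical run of 311 bases. Bases 484 to 543 of the coding sequence are shown because they hold 3 of the 5 differences, in capitals.
Psme2: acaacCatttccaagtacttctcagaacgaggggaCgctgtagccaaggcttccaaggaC
Psme2b: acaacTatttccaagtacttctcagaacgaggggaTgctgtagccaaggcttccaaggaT
Of the counts assigned to the pair, Psme2b took 1.11%, 1.87% and 1.49% in AP20187 RNA libraries and 0.867%, 2.00% and 2.24% in vehicle RNA libraries. In footprints it took 58.3%, 56.3% and 56.3% in AP20187 libraries and 77.0%, 66.7% and 56.6% in vehicle libraries. The sum of both genes in footprints was only 629, 167 and 174 counts in AP20187 libraries and 152, 102 and 159 in vehicle libraries. Footprint values of the pair, and the value of 4.50 ± 0.59 for footprints over RNA of Psme2b, are therefore uncertain, and Psme2b showed no call after AP20187 (RNA 0.05 ± 0.47, footprints -0.47 ± 0.39).

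Levels were compared as footprint CPM per kilobase of coding sequence. Core subunits and ATPases stand in the particle in equal numbers, unless inducible subunits replace Psmb5, Psmb6 and Psmb7. The inducible subunits, the cap chaperones and Psmf1, given on the same scale, need not. Over the 14 core subunits the level per kilobase spanned 34.5-fold in AP20187 glands, from Psma5 to Psma7, and 40.4-fold in vehicle glands, from Psma3 to Psmb4. Over the 6 core subunits that share up to 10% of their windows, the span was 3.57-fold in AP20187 glands and 3.39-fold in vehicle glands. Psma7 stood at 1109 ± 98 CPM per kilobase in AP20187 glands and 835 ± 164 in vehicle glands (SD, n = 3 each), and Psmb4 at 962 ± 257 and 949 ± 74. Psma6 was the lowest of the 6, at 310.5 ± 77.2 in AP20187 glands and 279.9 ± 41.8 in vehicle glands, and Psma1 (338 ± 68 and 290 ± 71) did not differ from it beyond the SD. Of the 6 ATPases, 5 lay within 1.46-fold of each other in AP20187 glands and within 1.82-fold in vehicle glands. The sixth, Psmc1, with 53.4% shared windows, stood at 27.6 ± 8.3 and 20.6 ± 2.2. The immunoproteasome subunits stood at 344 ± 80 in AP20187 glands and 185 ± 22 in vehicle glands for Psmb8, 225 ± 106 and 119 ± 31 for Psmb9, and 83.3 ± 27.3 and 78.2 ± 34.9 for Psmb10. The cap chaperones and Psmf1 lay between 56.6 for Psmd9 and 129.6 for Psmd10 in AP20187 glands, and between 60.6 for Psmd9 and 120.6 for Psmd10 in vehicle glands.

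**Figure D4:**
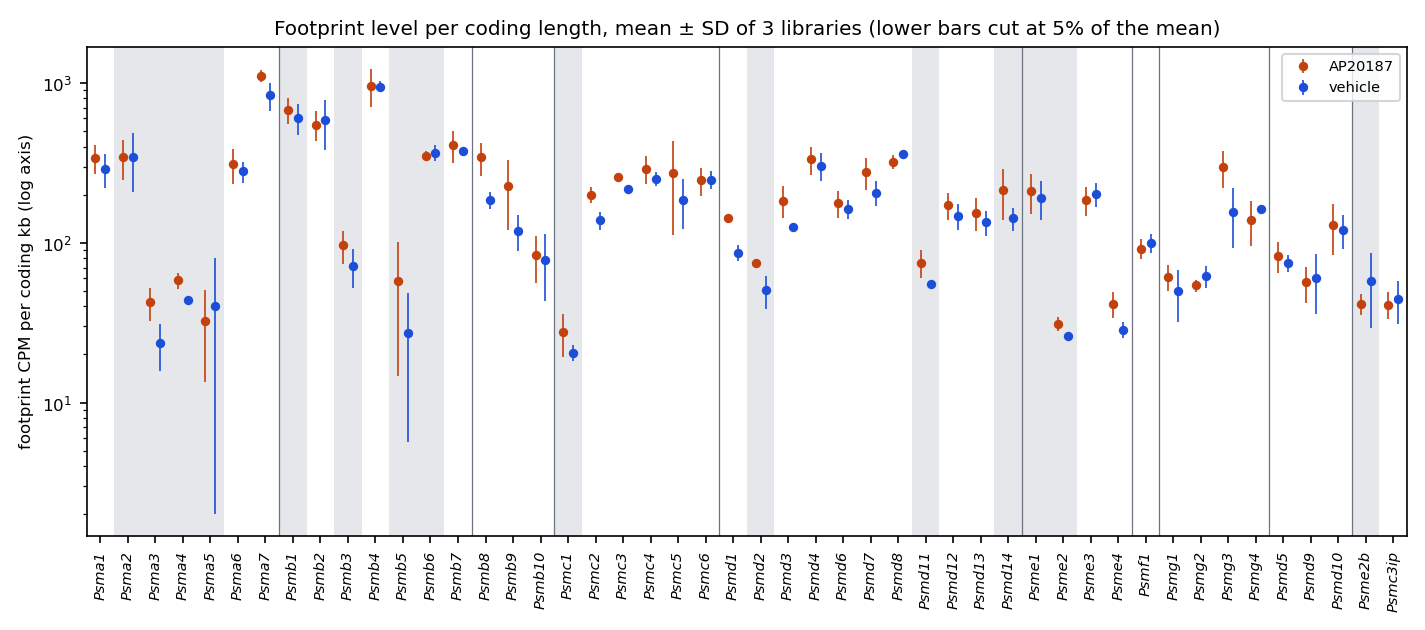
Footprint CPM per kilobase of coding sequence (log axis, mean ± SD of 3 libraries, lower bars stop at 5% of the mean) of the 48 genes, grouped by role, with AP20187 left of vehicle in each pair. Grey bands mark the 15 genes that share over 10% of their coding windows with a gene elsewhere, which include Psma3, Psma5, Psmb5, Psmc1 and Psme2. White columns of the core lie between 279.9 and 1109 CPM per kilobase.

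Genes that work beside the proteasome were read from lists that were chosen with earlier results of these data known. Of 8 listed partners without a Psm symbol, 0 passed in RNA or footprints in edgeR, and 3 of them, the ubiquitin receptor Adrm1 and the deubiquitinases Usp14 and Uchl5, had RNA log2 fold changes of 0.36, 0.37 and 0.50 with unadjusted p under 0.05. These 3 are 37.5% of the 8, near the 40.9% of all genes with such a p in RNA. In footprints 1 of the 8, Uchl5, had such a p (12.5%, against 16.5% of all genes). Of 10 ubiquitin shuttles and p97 segregase genes, 2 rose in RNA, among them the shuttle Ubqln1 (0.55 ± 0.12), and 0 fell. Of 6 ubiquitin genes and ubiquitin-activating enzymes, the ubiquitin gene Ubb fell by 0.53 on the log2 scale, and 0 rose. Over all tested genes 12.4% rose and 13.9% fell in RNA. Of 3 listed regulators of proteasome gene transcription, Ngly1, Ddi2 and Mafg, 0 passed in edgeR. In RNA 1 of the 3 had an unadjusted p under 0.05 (33.3%, against 40.9% of all genes).

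MHC class I processing genes other than the immunoproteasome rose in RNA for 7 of 10 listed, and 0 fell. The shares over all tested genes were 12.4% and 13.9%. The median log2 fold change of the 10 was 0.72 (0.01 over all tested genes). Tap1, which carries peptides into the endoplasmic reticulum and lies next to Psmb9, had 469.8, 180.5 and 195.5 CPM in AP20187 RNA libraries and 115.7, 128.0 and 132.1 CPM in vehicle libraries (log2 fold change 1.17 ± 0.34, edgeR adjusted p = 0.0392). AP20187 library 1 was the highest, as it was for Psmb8 and Psmb9. Tap1 and Psmb9 overlap on opposite strands over 212 bases of the Psmb9 transcript, and the strand setting of the counting is not given, so their reads there cannot be told apart. B2m, the light chain of class I, had a log2 fold change of 0.98 ± 0.28 (edgeR adjusted p = 0.0380). The kinase Jak1, which signals below interferon receptors, fell by 0.67 on the log2 scale in RNA. In footprints 0 of the 10 class I genes passed in edgeR, and 1 had an unadjusted p under 0.05 (10%, against 16.5% of all genes).

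Markers of cell types moved with treatment beside these changes. In RNA, 12.4% of all tested genes rose and 13.9% fell. Of 5 luminal epithelial markers, 4 rose and 1 fell, and their summed RNA level was 5692 to 8207 CPM in AP20187 libraries and 3422 to 4304 CPM in vehicle libraries. Of 4 basal markers 2 fell and 0 rose. All 5 fibroblast markers fell (1218 to 1639 CPM in AP20187 libraries, 3279 to 5740 in vehicle libraries), as did all 3 endothelial (209.1 to 236.2 CPM and 413.3 to 563.2 CPM) and 3 of 4 adipocyte markers (47.0 to 101.1 CPM and 259.3 to 495.8 CPM). Of 6 listed leukocyte markers, which matter here because leukocytes express the immunoproteasome, Cd14 and Itgam rose and 0 fell, but the list's median log2 fold change was -0.37, with Ptprc (-0.96), H2-Ab1 (-0.61), Cd68 (-0.41) and Cd74 (-0.34) below 0. The sum of the 6 was 1443 to 1734 CPM in AP20187 libraries and 699 to 1351 CPM in vehicle libraries, and Cd14 made up most of it in all 3 AP20187 libraries. Without Cd14 the sum was 381, 400 and 251 CPM in AP20187 libraries and 302, 616 and 470 CPM in vehicle libraries, so the groups overlapped. The pan-leukocyte marker Ptprc had 28.9, 39.8 and 21.7 CPM in AP20187 libraries and 27.97, 82.8 and 64.7 CPM in vehicle libraries, and did not pass. No listed marker was at 0 in an RNA library. The part of these cell types in the changes of the proteasome genes was not tested.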

How the data were processed

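RNA and ribosome footprints were sequenced from 12 libraries in 4 groups of 3. The deposited table, made by the authors, gives a raw read count for each library and gene symbol, with no scaling, for 7318 genes. The submitters' processing notes name STAR, Bowtie2, HTSeq, cutadapt and bcl2fastq 1.8.3 and the build mm10. Not given in the sources used here are the strand setting, the handling of reads that map to several places, where in a gene footprints were counted and why these genes were listed. Totals are therefore counts over the listed genes.

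From these counts, edgeR 4.0.16 (R 4.3.3) computed TMM scaling, the filterByExpr filter and quasi-likelihood tests. The p-values are two-sided and were adjusted over all tested genes (Benjamini-Hochberg), and calls are adjusted p under 0.05. RNA and footprint responses used 6 libraries each, translational efficiency all 12, and footprints over RNA the 6 vehicle libraries. SE comes from the F statistic. DESeq2 1.42.0, limma 3.58.1 (voom), other scalings, no filter, a replicate block and leaving out each library were alternatives. The edgeR fits were also tested on simulated data, with changes of 1 on the log2 scale in 100 genes. They recovered 74% of these in RNA, 15% in footprints, 1% in translational efficiency and 36% in footprints over RNA. Few changes of that size would thus have been called in footprints or translational efficiency. Intervals and floors of 3 counts cover counting error only.

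Named genes were those past the threshold, the catalytic subunits with Psmb8, Psmb9, Psmb10, Psme1 and Psme2, and otherwise the lowest p of a role. Others named were chosen after their values were seen. Members, lists and tests were chosen with earlier results of these data known, and the 28-base windows, which use GENCODE vM21 on GRCm38, after seeing the data. Coding length, not protein length as planned, scaled the levels. Same-numbered AP20187 and vehicle footprint libraries had weakly correlated deviations from their group means (r = 0.191, 0.272 and 0.378). In RNA the values were 0.197, -0.056 and -0.048. Some listed genes are not reported here.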

Additional observations from a re-analysis of the deposited data

How the results depend on the processing

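The counts of calls among the 48 stayed within 1.5 times under the other scalings, without a filter and under limma voom. In RNA, the replicate block left 1 gene higher (Psmd3, 2.08% against 8.48% of all genes) and 0 lower. Same-numbered RNA libraries had r = 0.197, -0.056 and -0.048 for numbers 1, 2 and 3. Leaving out single RNA libraries gave 0 to 18 higher and 0 to 1 lower, where 3.38% to 14.3% of all genes rose and 3.98% to 15.9% fell. In footprints, DESeq2 called 2 higher and the replicate block 5, against 2.98% and 5.01% of all genes. Leaving out single footprint libraries gave 0 of the 48 in either direction, where 0% to 1.18% of all genes rose and 0% to 1.73% fell. The labels do not say that numbers pair the treatments. Footprints over RNA in vehicle glands gave 16 to 27 high genes of the 48 when single libraries were left out, where 17% to 25.1% of all genes were high. Among the 33 genes sharing up to 10% of coding windows, an alternative chosen after seeing the data, 1 was low (3.03%, against 22.5% of all such genes). The block changed no other count by over 1.5 times. The cause of these shifts was not tested. Signs of some values turned when single libraries were left out. In footprint log2 fold change the ranges were -0.20 to 0.47 for Psmb10, -0.13 to 0.032 for Psmb6, -0.043 to 0.28 for Psmb7, -0.045 to 0.26 for Psmd5, -0.057 to 0.35 for Psme1 and -0.23 to 0.0014 for Psmf1. In translational efficiency they were -0.089 to 1.27 for Psmb5, -0.56 to 0.044 for Psmb8, -0.82 to 0.028 for Psmb9, -0.42 to 0.018 for Psme1, -0.26 to 0.094 for Psme2 and -1.03 to 0.28 for Psme2b. Footprints over RNA of Psmb5 ranged from -1.09 to 0.20. The footprint ratio of Psmb8 to Psmb5 ranged from -1.21 to 0.73 and that of Psmb10 to Psmb7 from -0.31 to 0.50 on the log2 scale. Footprint libraries, with 1772969 to 11018709 counts, limit the precision of every footprint value.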
